A study of Mus musculus with 5 samples.

Results

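Lymphocytes of untreated mouse skin were compared between epidermis and dermis in 2 single-cell RNA libraries, 1 from each tissue. A lymphocyte was a barcode with at least 200 detected genes, under 20% mitochondrial UMIs (unique molecular identifiers, counts of captured transcript molecules), at least 2 UMIs of Cd3d, Cd3e and Cd3g together, at most 2 UMIs of the macrophage genes C1qa, C1qb and C1qc, and under 1% of UMIs from the suprabasal keratins Krt1 and Krt10. These limits took 422 of 905 filtered epidermal barcodes and 78 of 521 filtered dermal barcodes, 500 of the 11942 filtered barcodes of the 5 libraries in the series. Both groups were 10-week-old C57BL/6 mice, labelled wild type and untreated. The number of mice behind a library and the body site are not given in the sources used here. Tissue was digested with enzymes and dead cells were sorted out, so cells lost or altered by the preparation cannot be told apart from those the tissue lacked. For a second look, the same limits were applied to epidermis without lesions from 10-week-old, untreated K5. Pp6fl/fl mice (2242 lymphocytes) and to dermis of 10-week-old wild-type mice after 5 days of imiquimod, an inflammatory cream, on the ear (235 lymphocytes), both also labelled C57BL/6.

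Mouse epidermis is home to dendritic epidermal T cells, gamma-delta T cells that settle before birth, sit between keratinocytes and carry one invariant receptor, natural killer (NK) receptors and cytotoxic granules. Mouse dermis instead holds a mixture of gamma-delta T cells primed to make interleukin 17, alpha-beta T cells and innate lymphoid cells. Trdc encodes the constant region of the delta chain and Trac that of the alpha chain, so their transcripts tell the lineages apart.

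The epidermal lymphocytes held 2071782 UMIs, with a median of 4248 per cell, and the dermal ones 340700, with a median of 4135. Mitochondrial transcripts were alike in median, at 2.65% and 2.79% of UMIs. The untreated libraries shared 1 barcode, and it was no lymphocyte in either. At the edge of the choice, 34 epidermal and 6 dermal lymphocytes had 2 Cd3 UMIs, and 111 epidermal and 18 dermal barcodes just outside had 1. A further 17 dermal barcodes were kept out by C1q transcripts and 10 epidermal ones by Krt1 and Krt10. With 1 library per group there is no replicate check and no test, and every interval covers counting error only.

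Cd3 transcripts, which the choice used and which are therefore only described, made up a median of 1.68% of UMIs in an epidermal lymphocyte and 0.189% in a dermal one. Cd3 reached 1% of UMIs in 349 of 422 epidermal and 7 of 78 dermal cells. A minority of the epidermal barcodes looked different: 36 held at least 1% of UMIs from Krt5 and Krt14, the keratins of basal keratinocytes. A stricter set, defined after these values were seen, therefore also asked for at least 0.05% Cd3 and under 1% Krt5 and Krt14. It kept 378 epidermal and 75 dermal cells, and left out 44 epidermal barcodes. Per barcode, these had a median of 2 Cd3 UMIs and a median of 9873 UMIs over all genes. Together they held 510287 UMIs, 24.6% of the epidermal sum over all cells of the choice. Krt14 stood at 20010 CPM (CPM is the UMIs of a gene summed over cells, for every 1000000 UMIs of those cells) in these 44 barcodes and at 795 CPM in the 378. Results below are given for all cells of the choice and, where it matters, for the stricter set.

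**Figure D1:**
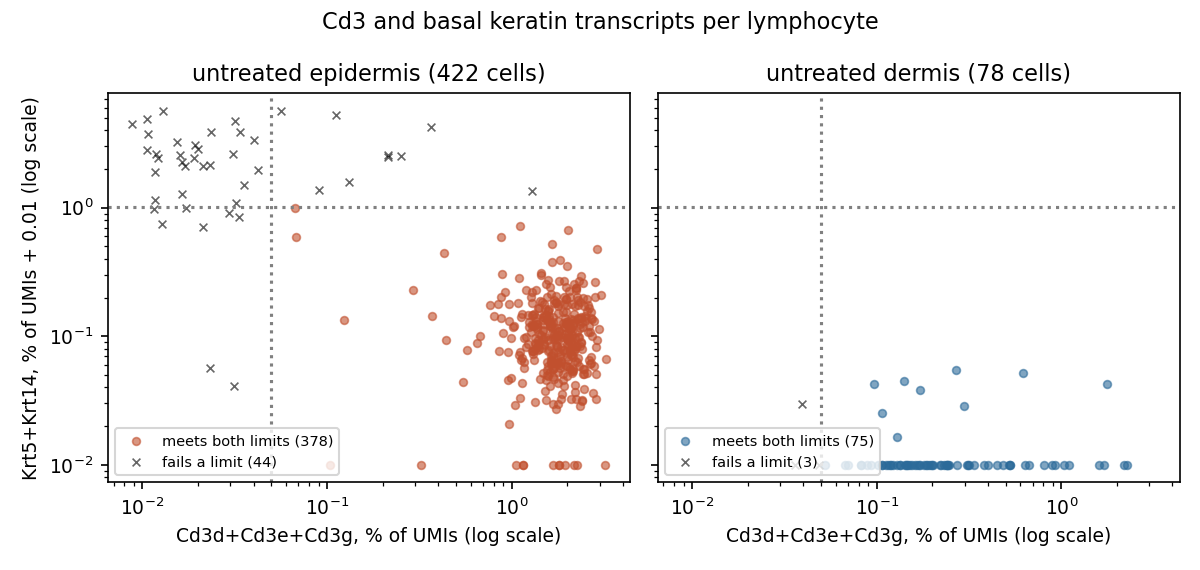
Each point is 1 lymphocyte, with its share of UMIs from Cd3d, Cd3e and Cd3g on the x axis and from Krt5 and Krt14 (plus 0.01) on the y axis, both in percent on log scales, and the dotted lines are the limits of the stricter set. Most of the 422 epidermal cells lie above 1% Cd3, while 44 fail a limit, and the 78 dermal cells spread at lower Cd3 with almost no keratin.

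Receptor genes separated the tissues. Trdc without Trac was found in 282 of 422 epidermal lymphocytes (66.8%, exact binomial 95% interval 62.1 to 71.3) and in 38 of 78 dermal ones (48.7%, 37.2 to 60.3). Trac without Trdc was found in 0 of 422 epidermal lymphocytes, where 3 counts would be 0.711% of cells with such UMIs (exact upper end 0.870%), and in 23 of 78 dermal ones (29.5%, 19.7 to 40.9). Both transcripts occurred in 102 epidermal and 11 dermal cells, where the median cell had 1 Trac UMI in either tissue against 41 Trdc UMIs in epidermis and 19 in dermis. Neither was seen in 38 epidermal cells, whose median Cd3 share was only 0.0312%, and in 6 dermal cells. Among the other filtered cells, 15.9% of 483 in epidermis (median 2039 UMIs) and 6.32% of 443 in dermis (median 5063 UMIs) had Trdc without Trac. These other cells are no clean background, since they include the barcodes with 1 Cd3 UMI and those kept out by C1q or keratin. Under 0.1% mitochondrial UMIs were found in 286 of the 483 and 6 of the 443, against 9 of 422 and 1 of 78 lymphocytes. After each cell was thinned to 1000 UMIs, Trdc-only cells were 81.1% (76.9 to 84.7) of 412 epidermal lymphocytes and 51.9% (40.3 to 63.5) of 77 dermal ones, with 10 epidermal cells and 1 dermal cell too shallow to enter. Both transcripts were then left in 33 epidermal and 3 dermal cells. Any Trdc was in 89.1% and 55.8%, against 91.0% and 62.8% as counted, so the higher Trdc-only shares are no gain in cells with Trdc.

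Summed receptor transcripts were also ordered by tissue, with 4 of 10 measured receptor genes (Trdc, Tcrg-C1, Tcrg-C4 and Cd247) higher in epidermis and 1, Trac, in dermis. Trdc (chromosome 14, 54142851 to 54148868, mm10) was at 7046 CPM (6932 to 7161) in epidermal and 2568 CPM (2401 to 2744) in dermal lymphocytes, a ratio of 2.74 (2.56 to 2.94). Tcrg-C1, a constant region of the gamma chain (chromosome 13, 19214103 to 19217024), was at 2798 and 525 CPM, a ratio of 5.32 (4.59 to 6.21). Trac was at 83.5 and 314 CPM, 3.76-fold (2.93 to 4.81) higher in dermis. The beta constant gene Trbc2 differed little, at 716 and 558 CPM (ratio 1.28, 1.10 to 1.502). Reads from the 3′ end seldom reach variable segments. The delta variable gene Trdv4 had UMIs in 163 epidermal and 15 dermal cells, at 125 and 70.4 CPM. Tcrg-V5 had UMIs in 21 of 422 epidermal and 0 of 78 dermal cells. Neither variable gene was among the 4 higher in epidermis, and 3 counts in the dermal lymphocytes are 8.81 CPM.

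Transcripts of the coreceptors of conventional T cells were close to absent. In dermis 3 cells had Cd4 and 3 had Cd8a or Cd8b1 UMIs, beside 23 cells with Trac and without Trdc. A cell at 0 UMIs can still hold transcripts that were not captured. Cd4 was at 0.483 CPM in epidermal and 14.7 CPM in dermal lymphocytes, the latter from 3 cells, and in other dermal cells it was at 27.1 CPM. Cd8a was at 1.93 and 2.94 CPM, each from 1 cell, and Cd8b1 at 4.83 CPM from 4 cells and 5.87 CPM from 2. Foxp3, the factor of regulatory T cells, was at 0.483 CPM from 1 epidermal cell and 8.81 CPM from 2 dermal cells. None of these 4 genes was measured, a term kept here for genes with 10 or more UMIs in the 2 tissues together and a level of 10 CPM or more in one of them.

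**Figure D2:**
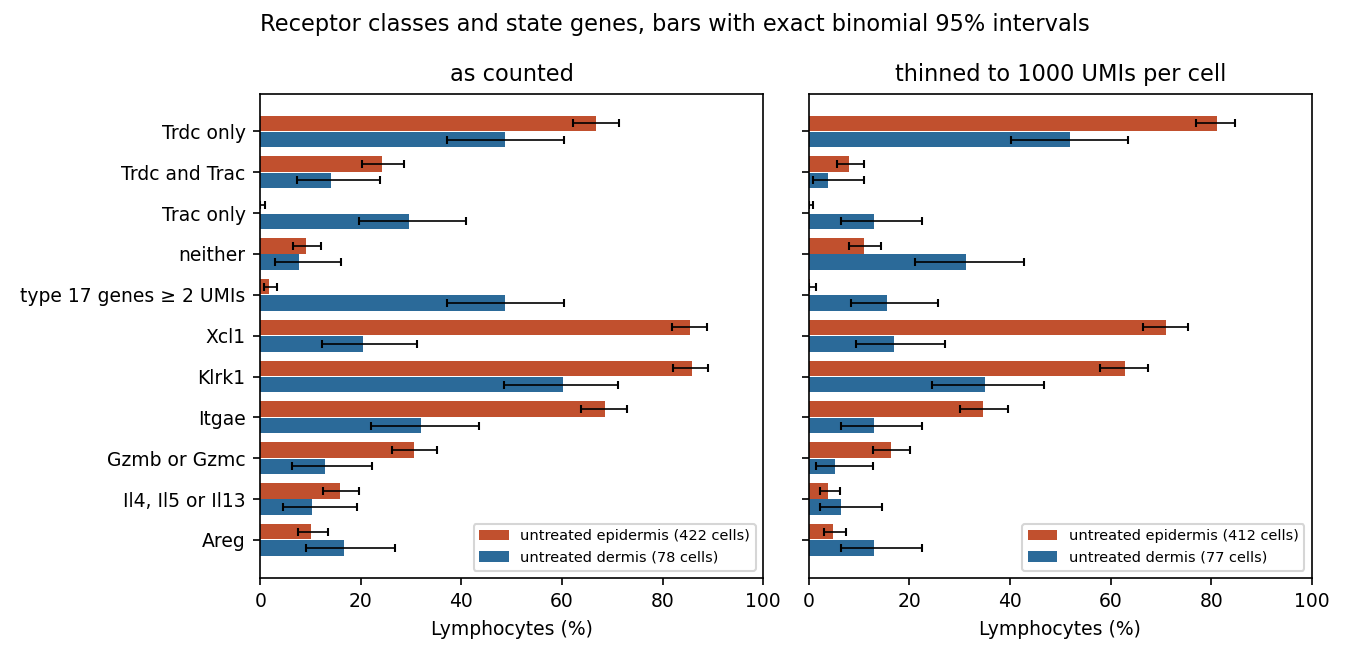
Bars give the share of lymphocytes in each receptor class or with UMIs of a state gene, in percent, for untreated epidermis and dermis, with exact binomial 95% intervals, as counted on the left and after thinning to 1000 UMIs per cell on the right. Xcl1, Itgae and Trdc-only shares are higher in epidermis, and cells with type 17 transcripts are found mainly in dermis.

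Over all genes, 8726 were measured in this sense. A gene counts as higher in one tissue where even the end of the exact ratio interval nearest to 1 was past 2-fold. By size, 369 genes (4.23%) were higher in epidermis and 414 (4.74%) in dermis, and the median log2 ratio of epidermis to dermis over all measured genes was 0.32 (with 5 CPM added to each level). Scaling moved this split: 282 genes were higher in epidermis and 503 in dermis with TMM factors, and 242 and 543 with median-of-ratios factors, which lower every log2 ratio by 0.21 and 0.32. In the stricter set 340 of 8376 measured genes (4.06%) were higher in epidermis and 375 (4.48%) in dermis, with a median of 0.37. The lists of genes described next are read against these shares, and their medians against 0.32 or 0.37.

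**Figure D3:**
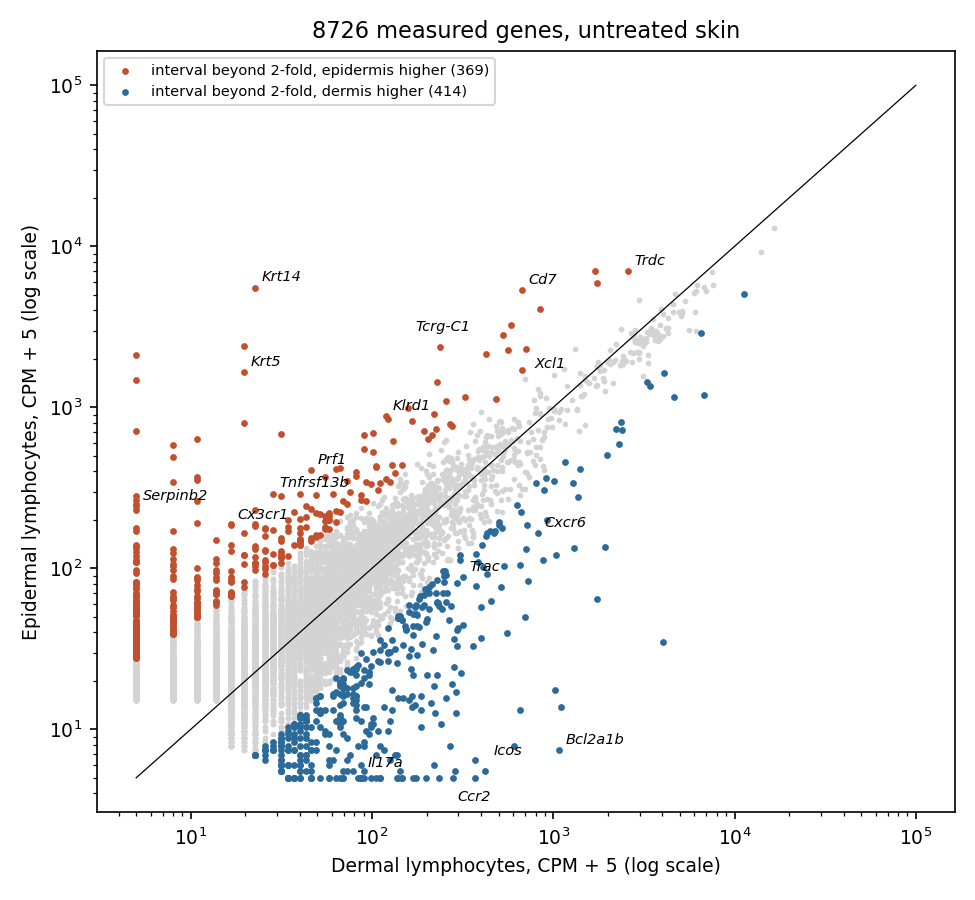
Each point is 1 of 8726 measured genes, with its level in dermal lymphocytes on the x axis and in epidermal lymphocytes on the y axis, in CPM plus 5 on log scales, and coloured points have a ratio interval wholly beyond 2-fold. The 369 genes higher in epidermis include keratin genes at the top left, and the 414 higher in dermis include a band with next to no epidermal transcripts along the bottom.

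Genes known from dendritic epidermal T cells were higher in epidermis. Of 22 measured members of this list, 12 were higher in epidermis and 1 (Serpinb9, a granzyme inhibitor) in dermis, with a median log2 ratio of 1.66. Under the stricter limits 13 were higher in epidermis and 0 in dermis, with a median of 1.94. Cd7, a T and NK cell surface protein, was at 5361 CPM (5261 to 5461) in epidermal and 669 CPM (585 to 762) in dermal lymphocytes, 8.01-fold (7.02 to 9.17) higher in epidermis. It had UMIs in 390 of 422 epidermal but 24 of 78 dermal cells. Klrd1, the CD94 chain of an NK receptor, was at 878 and 114 CPM (7.67-fold, 5.59 to 10.8). Crtam, a class I-restricted adhesion receptor, was at 37.7 CPM and at 0 UMIs in dermis, at least 4.28-fold higher in epidermis. Such bounds set 3 counts over the group (8.81 CPM for the dermal lymphocytes) in place of 0.

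The lymphotactin gene Xcl1, whose product attracts cross-presenting dendritic cells, had UMIs in 85.5% (81.8 to 88.8) of epidermal and 20.5% (12.2 to 31.2) of dermal lymphocytes. Its level was 2303 and 704 CPM, a ratio of 3.27 (2.87 to 3.74). Other epidermal cells had Xcl1 UMIs in 9.32% and other dermal cells in 2.03%. Itgae, the alpha chain of the integrin that binds E-cadherin on keratinocytes, was at 335 and 106 CPM (3.17-fold, 2.27 to 4.57), with UMIs in 68.5% and 32.1% of cells. E-cadherin itself, Cdh1, was at 109 CPM in epidermal and 8.81 CPM in dermal lymphocytes (12.3-fold, 4.17 to 60.3), but at 156 CPM in the other epidermal cells. Klrk1, the NKG2D receptor for stress ligands, was at 841 and 437 CPM, a ratio of 1.92 (1.63 to 2.29) that did not lie wholly beyond 2-fold. With the stricter limits it was at 1113 and 460.2 CPM (2.42-fold, 2.04 to 2.89).

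Cytotoxic and NK receptor genes went both ways, more of them to epidermis. Of 24 measured members 12 were higher in epidermis and 5 in dermis (median 1.76). The 5 were the activating receptor gene Cd226, the cytokine genes Ccl4, Tnf and Ltb, and Srgn, which encodes the proteoglycan of the granule matrix. The stricter set gave 13 and 4 of 25. Prf1 encodes perforin, the pore-forming protein of cytotoxic granules, and was at 401 CPM (374 to 429) in epidermal and 41.1 CPM (22.5 to 69.0) in dermal lymphocytes (9.75-fold, 5.78 to 17.9). It had UMIs in 309 of 422 epidermal but 5 of 78 dermal cells, and 9 of the 14 dermal UMIs lay in 1 cell. Ctsw, a cysteine protease of cytotoxic cells, was at 1431 and 223 CPM (6.41-fold, 5.11 to 8.16). Nkg7, a granule membrane protein, was at 3256 and 578 CPM (5.63-fold, 4.89 to 6.52). Granzyme transcripts were uneven: Gzmc was at 239 and 38.2 CPM (6.27-fold, 3.64 to 11.9), while Gzmb was at 99.4 and 82.2 CPM, a ratio of 1.21 (0.813 to 1.87). Ifng was nearly silent, with UMIs in 2 of 422 epidermal and 1 of 78 dermal cells.

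The type 17 list showed the opposite order. Of 23 measured members 16 were higher in dermis and 1 (Aqp3, also on the keratinocyte list) in epidermis, with a median log2 ratio of -3.26. The stricter limits gave 16 against 0, with a median of -3.27. A cell with at least 2 UMIs of Il17a, Il17f, Il22, Il23r, Cd163l1 and 5830411N06Rik together was seen 38 times among 78 dermal lymphocytes (48.7%, 37.2 to 60.3) and 7 times among 422 epidermal ones (1.66%, 0.669 to 3.39). The same count was 3.84% in other dermal cells and 0 of 483 in other epidermal cells. With genes at 0 UMIs on one side set to 3 counts, the medians were 1.62 for the dendritic epidermal T cell list, 1.46 for the cytotoxic list and -3.01 for the type 17 list. Thinned to 1000 UMIs, the shares of these cells were 15.6% (8.32 to 25.6) in dermis and 0.243% (0.00614 to 1.34) in epidermis. Of the 38 dermal cells, 25 had Trdc only, 5 Trac only, 7 both and 1 neither.

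Within that list the cytokine itself came from few cells. Il17a (chromosome 1, 20730905 to 20734496) had 0 UMIs in epidermal lymphocytes and 45 in dermal ones, 132 CPM (96.3 to 177), at least 91.2-fold higher in dermis. The 45 UMIs lay in 6 cells, 34 of them in 1. Il17f was at 0 and 47.0 CPM in 9 dermal cells, at least 32.4-fold higher. The receptors and regulators were more widely spread. Rora, a nuclear receptor that acts as a transcription factor, was at 31.9 and 396 CPM (12.4-fold, 9.20 to 16.96) and had UMIs in 37 of 78 dermal cells. Il23r, the receptor for interleukin 23, was at 0.483 CPM (1 UMI) and 64.6 CPM in 16 dermal cells (134-fold, 21.6 to 5521). The scavenger receptor gene Cd163l1 had 29 UMIs in epidermal lymphocytes and 92, or 270.0 CPM, in dermal ones (19.3-fold, 12.6 to 30.4). Blk, a Src-family kinase of this lineage, was at 0 and 141 CPM in 22 dermal cells, at least 97.3-fold higher.

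Promoters of a gene from each side are shown since both genes are named for their tissue and their transcripts belong to the granule and type 17 programmes described above. The sequences run from 250 bases before to 50 after the start in RefSeq on GRCm38.p6 (the mm10 assembly), Il17a from chr1:20730655-20730954 on the plus strand and Prf1 from chr10:61297586-61297885 on the plus strand. Capitals mark 3 motifs searched on both strands: TGTGGT (Runx core, read as its reverse complement ACCACA below), AGGTCA (the core of many nuclear receptor sites, read as TGACCT) and AGGTGT (T-box core).
Il17a: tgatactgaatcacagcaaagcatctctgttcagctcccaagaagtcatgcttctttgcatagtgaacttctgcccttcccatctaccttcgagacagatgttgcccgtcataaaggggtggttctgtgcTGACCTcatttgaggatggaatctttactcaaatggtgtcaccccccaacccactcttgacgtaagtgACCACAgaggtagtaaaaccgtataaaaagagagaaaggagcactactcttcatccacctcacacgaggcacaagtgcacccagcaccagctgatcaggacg
Prf1: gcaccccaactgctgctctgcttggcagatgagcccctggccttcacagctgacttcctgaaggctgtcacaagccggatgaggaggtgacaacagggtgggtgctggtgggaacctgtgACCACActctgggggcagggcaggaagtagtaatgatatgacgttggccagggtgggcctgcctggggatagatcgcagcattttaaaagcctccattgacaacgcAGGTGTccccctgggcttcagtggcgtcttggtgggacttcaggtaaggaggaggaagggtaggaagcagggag
Il17a held 1 TGTGGT and 1 AGGTCA, and Prf1 held 1 TGTGGT and 1 AGGTGT. Of 32851 promoters of this length, 16.8% held TGTGGT, 16.3% AGGTCA and 13.7% AGGTGT. Among the genes named below from the stricter set, AGGTCA was in 1 of 12 promoters of the epidermal group (Tnfrsf13b) and 3 of the 9 matched promoters of the dermal group (Gpr132, Actn2 and Il17a). TGTGGT was in 2 of 12 (Cx3cr1 and Prf1) and in the same 3 of 9, and AGGTGT in 1 of 12 (Prf1) and 0 of 9. A match is only a run of letters and says nothing of binding.

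Genes were named by size of ratio, at 100 CPM or more in the higher tissue and no more than 3 times as high in that library's other cells. With all cells of the choice, 8 of the 12 genes named for epidermis were higher still in the other epidermal cells, and they include genes known from keratinocytes and melanocytes. Krt14 was at 5528 and 17.6 CPM (314-fold, 144 to 855) and Krt5 at 1650 and 14.7 CPM (112-fold, 48.1 to 346). Serpinb2, Apoc1, Igfbp2, Cyr61, Pmel (a melanosome protein) and Dsp (desmoplakin of cell junctions) made up the rest of the 8, and Adora3, Cx3cr1, Rcn3 and Tnfrsf13b were the other 4. In the other epidermal cells Krt14 stood at 14543 CPM. In the stricter set Serpinb2 went from 239 to 19.2 CPM and Pmel from 104 to 24.3 CPM in epidermal lymphocytes, and neither they nor Igfbp2, Cyr61 and Dsp had an interval wholly beyond 2-fold. The keratinocyte marker list summed to 18740 CPM in epidermal and 346 CPM in dermal lymphocytes, with 22 of 22 measured members higher in epidermis. This list, here and below, holds Krt1 and Krt10, which the choice itself limits, and both are among the 22. Within the stricter set it summed to 3930 and 348 CPM, with 15 of 19 higher. With Krt1 and Krt10 held under 0.1% of UMIs, 376 genes were higher in epidermis and 396 in dermis. In a further setting the profile of the other cells was subtracted, scaled to the keratinocyte markers in epidermis (26.2% of that profile) and to the macrophage markers in dermis (7.31%). It gave 371 and 389 genes, with list medians of 1.98 for dendritic epidermal T cell genes, 2.07 for cytotoxic genes and -3.21 for type 17 genes.

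The 12 genes named for epidermis in the stricter set include several that encode receptors, and each was lower in the other epidermal cells than in the lymphocytes. Tnfrsf13b, the TACI receptor for B cell survival factors (chromosome 11, 61126755 to 61149372), was at 379 CPM (349 to 410) in epidermal and 25.6 CPM (11.0 to 50.4) in dermal lymphocytes (14.8-fold, 7.46 to 34.5). It had UMIs in 272 of 378 epidermal and 7 of 75 dermal cells. Adora3, an adenosine receptor (chromosome 3, 105870858 to 105908926), was at 244 and 12.8 CPM (19.1-fold, 7.39 to 70.4). Cx3cr1, the fractalkine receptor, was at 224 and 12.8 CPM (17.5-fold, 6.79 to 64.7), but 98 of its 350 epidermal UMIs lay in 1 cell. Mchr1, a receptor for melanin-concentrating hormone, and Adgrb2, an adhesion G protein-coupled receptor, were at 103 and 117 CPM in epidermis and at 0 UMIs in dermis, at least 10.7-fold and 12.2-fold higher. The other 7 were Ncf1 (an NADPH oxidase subunit), Rcn3, Fam174b, Ace (angiotensin-converting enzyme), Prf1, Dapk2 (a death-associated kinase) and C1qtnf6, with ratios from 11.8 to 33.5.

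The 12 genes named for dermis in the stricter set were nearly silent in epidermis. By the naming rule a gene could be up to 3 times as high in the other dermal cells, and those levels are not given here. Icos, a costimulatory receptor (chromosome 1, 60977927 to 61000320), had 1 UMI in 378 epidermal cells and was at 431 CPM (362 to 511) in dermal ones, where 32 of 75 cells carried it. Ccr2, a receptor for monocyte-attracting chemokines (chromosome 9, 124101950 to 124113557), was at 0 UMIs and 297 CPM (240.0 to 364), at least 155-fold higher. Gpr183, an oxysterol receptor that steers lymphocyte migration, had 1 epidermal UMI and was at 272 CPM in dermis, in 33 of 75 cells. Ikzf3, the Ikaros-family factor Aiolos, was at 0 UMIs and 160 CPM, at least 83.2-fold higher. Cotl1, an actin-binding protein, was at 13.4 and 719 CPM (53.5-fold, 34.1 to 88.1). Bcl2a1b and Bcl2a1d, near-identical survival genes whose reads cannot be firmly assigned to one copy, were at 2.56 and 3.84 CPM in epidermis and at 1039 and 527 CPM in dermis. Gpr132, Fgl2, Rora, Actn2 and Il17a completed the group. By contrast, Il1b, named when all cells of the choice were used, had 119 of its 124 dermal UMIs in 1 cell, and only 4 UMIs were left in the stricter set.

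Genes that hold lymphocytes in tissue or let them leave were mostly higher in dermis. Of 19 measured residency and egress genes 10 were higher in dermis and 1, Itgae, in epidermis (median -1.39). S1pr1, the sphingosine-1-phosphate receptor used to exit tissue, was at 0.965 CPM (2 UMIs in 1 cell) in epidermal and 52.8 CPM in dermal lymphocytes, in 17 cells (54.7-fold, 13.1 to 486). Cxcr6, a receptor of resident T cells, was at 160.2 and 819 CPM (5.11-fold, 4.34 to 6.01). Cd69, which opposes S1pr1 at the surface, was at 72.4 and 370 CPM (5.11-fold, 3.998 to 6.52). Cd69 is also on the list of stress genes, of which 17 of 39 were higher in dermis. Ccr7, which guides cells to lymph nodes, was at 7.72 and 285 CPM, yet 61 of its 97 dermal UMIs lay in 1 cell, and in the stricter set it was at 10.2 and 115 CPM (11.2-fold, 6.07 to 21.7).

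Chemokine receptors were split. Of 11 measured homing genes, Cx3cr1 and the sialyltransferase gene St3gal4 were higher in epidermis, and Ccr2, Ccr7, Cxcr4, Ccr8 and Cxcr6 in dermis. Cxcr4 was at 0.965 and 82.2 CPM (85.1-fold, 21.5 to 737). Ccr10, a skin-homing receptor, was at 0.965 and 2.94 CPM, and Ccr6, a receptor of type 17 cells, had 0 and 3 UMIs, too few to compare.

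Signalling and adhesion genes went both ways. Of 21 measured coreceptor and proximal signalling genes Cd7 and Fcer1g were higher in epidermis, and Blk, Cd28, Cd27, Txk, Cd5, Tyrobp and Cd6 in dermis. Fcer1g, a signalling chain shared by Fc and NK receptors, was at 2131 and 420 CPM (5.08-fold, 4.30 to 6.04). Cd5, which dampens receptor signals, was at 2.41 and 58.7 CPM (24.3-fold, 8.86 to 82.9), from 5 epidermal and 7 dermal cells. Of 19 integrin and adhesion genes 6 were higher in epidermis, among them Itgae, Crtam and Cdh1, and 3 (Plxnd1, Sema4d and Sema4a) in dermis.

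Costimulators, checkpoints and cytokine receptors gave more calls to dermis. Of 20 measured costimulators and checkpoints 11 were higher in dermis and 4 (Cd160, Cd96, Cd9 and Lag3) in epidermis, and Cd9 was not past 2-fold in the stricter set, at 362 and 208 CPM. Pdcd1, the PD-1 receptor, was at 0 UMIs in epidermis and 99.8 CPM in 16 dermal cells, at least 68.9-fold higher. Cd27 was at 11.1 and 182 CPM (16.4-fold, 10.0 to 27.7). Of 26 cytokine receptors 10 were higher in dermis and 1, the interleukin 12 receptor chain Il12rb2, in epidermis (257 and 64.6 CPM, 3.98-fold, 2.60 to 6.40). Il7r, the interleukin 7 receptor, was at 0 UMIs in 422 epidermal cells and 141 CPM (104 to 187) in dermal ones, at least 97.3-fold higher. Il2rb, shared by the interleukin 2 and 15 receptors, was at 435 and 637 CPM, 1.46-fold (1.26 to 1.70) higher in dermis.

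Transcription factors of lymphocyte fate followed: 10 of 28 measured were higher in dermis and 1, Id3, in epidermis (median -0.90). Id3 was not past 2-fold in the stricter set, at 111 and 63.9 CPM, and was at 620.2 CPM in other epidermal cells. Gata3 was at 62.8 and 147 CPM (2.34-fold, 1.65 to 3.26, higher in dermis). In the stricter set, with 36.5 and 150.2 CPM, it was 4.12-fold (2.74 to 6.16) higher. Of 10 measured regulatory T cell genes 5 were higher in dermis (Icos, Cd83, Il2ra, Tnfrsf4 and Ctla4) and 0 in epidermis. These genes are also made by activated T cells, and Foxp3 itself was in 2 cells. Type 2 cytokine genes Il4, Il5 and Il13 had UMIs in 15.9% (12.5 to 19.7) of epidermal and 10.3% (4.53 to 19.2) of dermal lymphocytes, against 3.88% and 6.49% after thinning, so no order was read from them. Of 13 measured cytokines and growth factors 4 were higher in dermis (Il17a, Il17f, Tnfsf11 and Tnf) and 0 in epidermis. Tnf was at 41.5 and 194 CPM (4.67-fold, 3.33 to 6.51). Areg, an epidermal growth factor receptor ligand, was at 110 and 258 CPM (2.36-fold, 1.82 to 3.03), an interval that did not clear 2-fold. Of 9 measured type 2 genes 2 (Ccr8 and Hlf) were higher in dermis.

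Many stress genes were higher in dermis. Of 39 measured immediate early and dissociation stress genes 17 were higher in dermis and 2, Jun and Hspb1, in epidermis (median -1.10). With the stricter limits 17 of 38 stood against 0. The heat shock gene Hspa1a was at 1194 CPM (1147 to 1242) in epidermal and 6810 CPM (6535 to 7092) in dermal lymphocytes (5.70-fold, 5.39 to 6.04). In the other cells of the same libraries it was at 1143 and 4968 CPM. Nr4a3, a receptor-induced orphan receptor gene, was at 9.17 and 167 CPM (18.2-fold, 10.7 to 32.5), with 29 of 57 dermal UMIs in 1 cell. On the list for the unfolded protein and integrated stress responses 9 of 25 were higher in dermis and 0 in epidermis. Among them the chaperone gene Hspa5 was at 503 and 1967 CPM (3.91-fold, 3.54 to 4.31), and at 216 and 1162 CPM in other cells. The part that tissue preparation has in these differences cannot be told apart from the tissue, since each tissue was 1 library.

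Other general programmes gave few calls. Of 25 glycolysis and lipid uptake genes 1 (the lactate exporter Slc16a3) was higher in dermis and 0 in epidermis, of 21 cell cycle genes 1 in each direction, and of 13 mitochondrially encoded genes 1 in dermis. Of 15 class I presentation genes 5 were higher in dermis, among them B2m, the light chain of class I molecules, at 804 and 2372 CPM (2.95-fold, 2.71 to 3.21). Of 14 interferon-stimulated genes 1 (Bst2, a tether of budding virus) was higher in epidermis, at 356 and 114 CPM (3.11-fold, 2.25 to 4.41), and 2 (Oasl2 and Ifi203) in dermis. In the class I list H2-Q6 and H2-Q7 were also among the 5 but are near-identical copies whose reads may be split between them.

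Markers of other cells moved with the tissue as well. The macrophage and monocyte list had 7 of 11 measured members higher in dermis and 1 (Apoe) in epidermis, with sums of 2786 CPM in epidermal and 1937 CPM in dermal lymphocytes and 9480.5 and 29564 CPM in the other cells. This list, here and below, holds the C1q genes that the choice itself limits, and C1qb and C1qc are among the 7. Lyz2 was at 0 UMIs in epidermal lymphocytes and 367 CPM in dermal ones, spread over 50 of 78 cells, beside 6983 CPM in other dermal cells. Dendritic cell and class II genes summed to 667 and 7505 CPM, and in the stricter set 533 of 633 dermal Cd74 UMIs lay in 1 cell. Mast cell markers summed to 20.3 and 235 CPM, with 3 of 4 measured members higher in dermis. Fibroblast and vessel markers summed to 314 and 229 CPM, with 0 of 6 higher in epidermis and 3 in dermis. The B cell list had 1 measured member and 0 past 2-fold. NK and innate lymphoid markers had 1 of 4 (Prf1) higher in epidermis and 1 (Hlf) in dermis. With only barcodes at 0 C1q UMIs, 238 genes were higher in epidermis and 326 in dermis. The list medians were then 1.78 for dendritic epidermal T cell genes, 1.80 for cytotoxic genes, -2.76 for type 17 genes and -2.10 for macrophage markers. The part of dendritic, mast, fibroblast and vessel cell RNA was not tested on its own.

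Because the tissues hold different mixtures of lineages, cells with Trdc and without Trac were compared alone: 282 epidermal cells with 1250175 UMIs and 38 dermal cells with 150231. The stricter limits were not applied here. They were met by 270 of the 282 and by all 38, and 10 of the 282 held at least 1% Krt5 and Krt14. Of 8371 measured genes 155 (1.85%) were higher in epidermis and 224 (2.68%) in dermis, with a median of 0.37. The dendritic epidermal T cell list gave 7 of 22 higher in epidermis and 0 in dermis (median 1.60), and the type 17 list 12 of 19 higher in dermis and 1, Aqp3, in epidermis (median -3.24). The cytotoxic list gave 7 of 22 and 2. Of 15 costimulators and checkpoints 1 was higher in epidermis and 6 in dermis, with a median of 0.33 against -2.44 in all cells of the choice. Of 25 cytokine receptors 0 were higher in epidermis and 5 in dermis (median -0.11, against -0.44). In the Trdc-only cells 16 of 22 keratinocyte markers were higher in epidermis, with sums of 14488 and 453 CPM. Of 38 immediate early and dissociation stress genes 16 were higher in dermis there. Cd7 was at 6310 and 1338 CPM (4.72-fold, 4.10 to 5.45) and Tcrg-C1 at 3169 and 965 CPM (3.28-fold, 2.78 to 3.90). Cd163l1 was at 16.8 and 479 CPM (28.5-fold, 17.3 to 48.9), and Il17a at 0 and 73.2 CPM in 5 dermal cells, at least 30.5-fold higher in dermis. Xcl1 was at 2428 and 1118 CPM, and its ratio of 2.17 (1.86 to 2.55) did not lie wholly beyond 2-fold. Of the 38 dermal cells 6 had Cd3 at 1% of UMIs or more. The ratios of this comparison were not computed without those 6, which are described below.

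The genes named for epidermis among Trdc-only cells were Serpinb2, Cx3cr1, Adgrb2, Tnfrsf13b, Adora3, Fbxw5, Carmil1, Gstm5, Rcn3 and Tmem219. Serpinb2 is one of the keratinocyte genes above, with 181 of 380 UMIs in 1 cell. Those named for dermis were Bcl2a1b, Bcl2a1d, Gpr183, Icos, Ccr2, Blk, Fgl2, Pdcd1, Ikzf3 and Gpr132. Icos had 1 epidermal UMI here and was at 266 CPM in dermis, in 14 of 38 dermal cells. In the 23 dermal Trac-only cells it was at 699 CPM (557 to 867), in 17 cells. Cd163l1 and Pdcd1, by contrast, had 1 UMI each in the 23 Trac-only cells, against 72 and 23 UMIs in the 38 Trdc-only cells. Zbtb16, a factor of innate-like T cells, had 11 UMIs in the Trac-only and 1 in the Trdc-only cells.

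The 7 dermal cells with Cd3 at 1% of UMIs or more, singled out after their values were seen, held 22680 UMIs. All 7 had Trdc, 6 of them without Trac, and none had type 17 transcripts as counted above. For Cd7, Klrd1 and Nkg7 their levels lay nearer to the 349 epidermal cells with as much Cd3 than to the other 71 dermal cells. Cd7 was at 5864 CPM (4910 to 6950) in the 7 cells, 7303 CPM (7165 to 7443) in the 349 and 299 CPM (242 to 365) in the 71. Klrd1 was at 1014 CPM (643 to 1522) in the 7, 1183 CPM in the 349 and 50.3 CPM in the 71. Nkg7 was at 4409, 4448 and 305 CPM in the same order. Icos, Ccr2, Blk, Bcl2a1b, Gpr183 and Il7r had 0 UMIs in the 7 cells, an exact interval that reaches 163 CPM, against 151 to 1151 CPM in the 71. For Blk and Il7r, both at 151 CPM in the 71, so few UMIs cannot show a difference.

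These few cells bear on the dermal sums. They held 133 of the 228 dermal Cd7 UMIs and 23 of the 39 Klrd1 UMIs, and without them dermal Cd7 falls from 669 to 299 CPM. With the 7 cells left out, 431 genes were higher in epidermis and 418 in dermis. Krt14 had 0 UMIs in the 7 cells and Krt5 had 1. Where in the skin these cells lay was not tested.

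**Figure D4:**
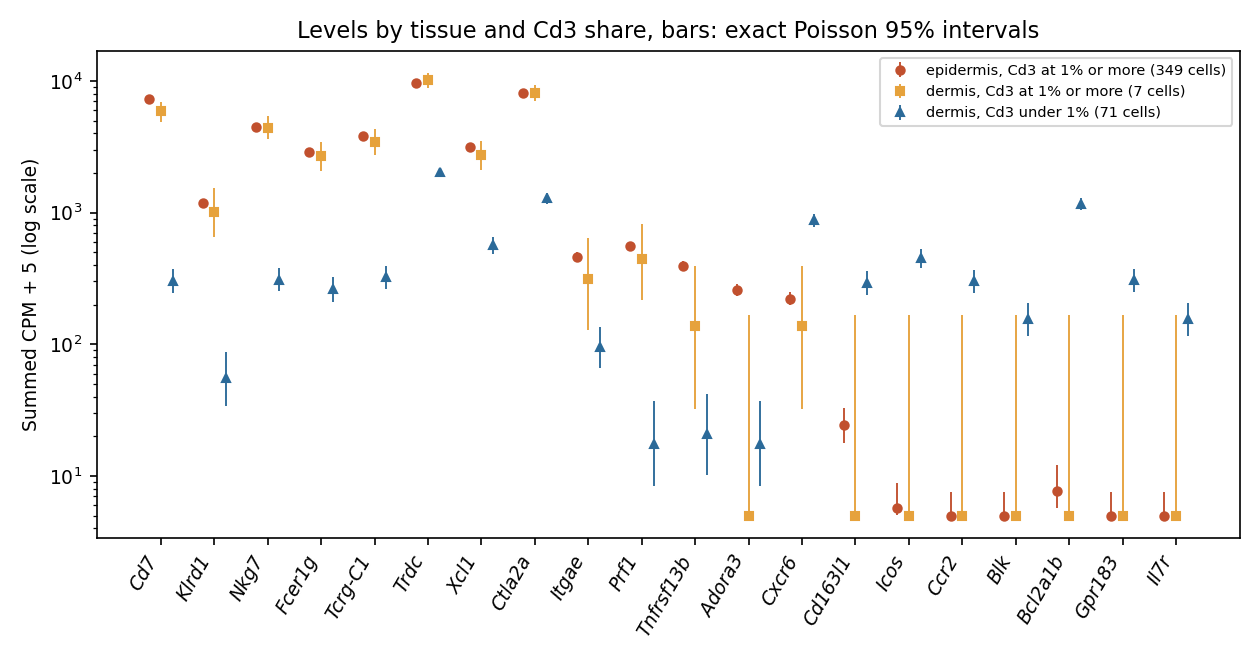
Points give summed levels in CPM plus 5 on a log scale, with exact Poisson 95% intervals, for 349 epidermal and 7 dermal cells with Cd3 at 1% of UMIs or more and for the other 71 dermal cells. From Cd7 to Prf1 the 7 dermal cells lie beside the epidermal ones, and for the genes from Icos to Il7r they have 0 UMIs, against 151 to 1151 CPM in the other dermal cells.

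Epidermal and dermal lymphocytes could be set side by side once more in libraries that the untreated pair did not use, K5. Pp6fl/fl epidermis without lesions and wild-type dermis after imiquimod. Genotype and treatment change with the tissue there, so tissue cannot be told apart from them. By the stricter limits these held 1107 and 210 cells, and 1135 of the 2242 epidermal barcodes failed a limit. Of 8690 measured genes 1192 (13.7%) were higher in that epidermis and 512 (5.89%) in that dermis. The 12 genes named for epidermis in the stricter untreated set were all higher in the second epidermis as well, and the 12 named for dermis all higher in the second dermis. With all cells of the choice, 1311 of 8662 measured genes (15.1%) were higher in that epidermis and 851 (9.82%) in that dermis, and so were 11 of the 12 and 12 of the 12 genes named from all untreated cells. Among all cells of the choice, 7 of 24 dendritic epidermal T cell genes were higher in that epidermis and 6 in that dermis (median 0.44, against 0.29 over all genes), and the cytotoxic list gave 7 and 8 of 24 (median 0.62). The type 17 list gave 1 and 19 of 24 (median -3.19). Keratinocyte markers summed to 46564 and 129 CPM in these cells. By the stricter limits the dendritic epidermal T cell list gave 15 and 2 of 23 (median 2.18, against 0.45), the cytotoxic list 17 and 7 of 28 (median 2.20) and the type 17 list 1 and 20 of 25 (median -2.69), with keratinocyte markers at 18827 and 136 CPM. By the stricter limits Tnfrsf13b was at 265 and 10.3 CPM, Adora3 at 154 and 0.684 CPM and Prf1 at 355 and 14.4 CPM. Icos was at 6.14 and 296 CPM, Ccr2 at 2.19 and 280 CPM and Ikzf3 at 1.75 and 106 CPM. Il17a, at 0 and 144 CPM in the stricter untreated pair, was at 5.26 and 588 CPM in the second pair.

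**Figure D5:**
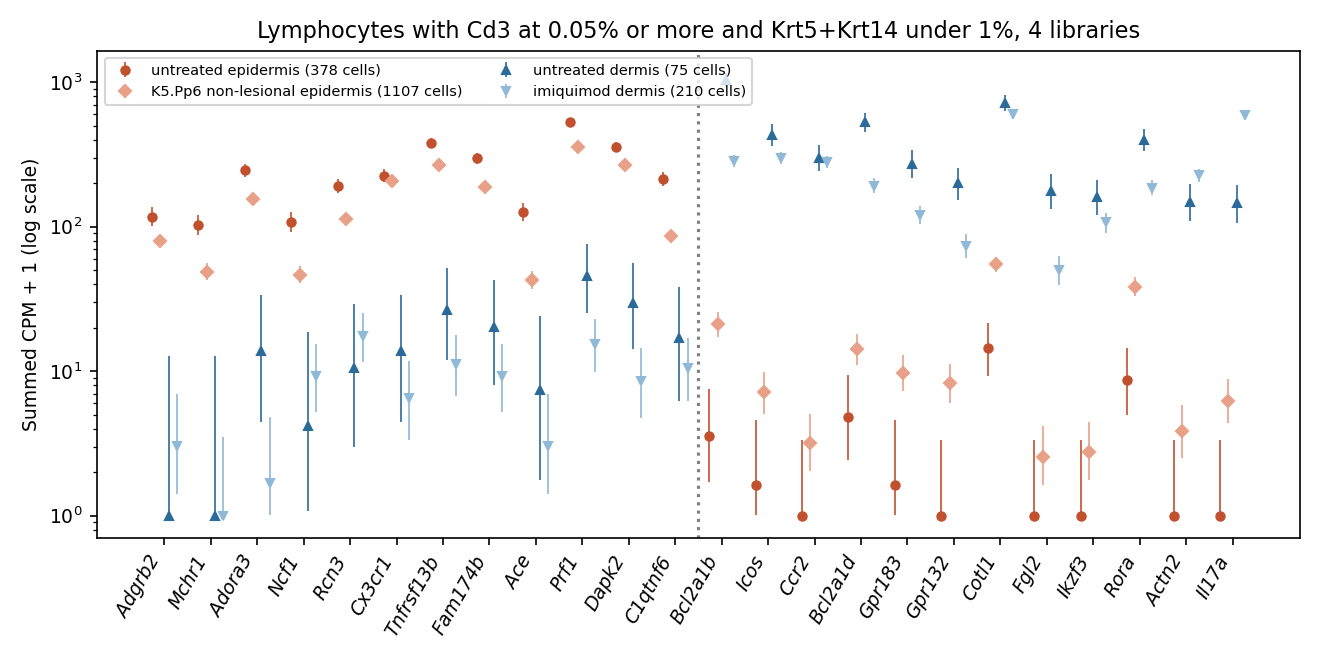
Points give the level in CPM plus 1 on a log scale, with exact Poisson 95% intervals, of the 24 genes named in the stricter set, in untreated epidermis, untreated dermis, K5. Pp6fl/fl epidermis without lesions and imiquimod dermis. Left of the dotted line both epidermal libraries lie above both dermal ones, and right of it below.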

How the data were processed

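Skin cells were run on the Chromium 3′ v3 kit, per the labels' protocols. The authors ran CASAVA and Cell Ranger against mm10, per the submitters' processing notes, and the matrix headers give software version 3.0.2. The deposited values are UMI counts for 31053 genes per called barcode, with no normalization. The sources used here do not give the cell calling.

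Counts were summed over the lymphocytes of a library and scaled to CPM, the UMIs of a gene for every 1000000 summed. Intervals are exact at 95% (Poisson for CPM, Clopper-Pearson for shares, conditional binomial for ratios). A gene with 0 UMIs on one side has its ratio set against 3 counts over the group. No test between the tissues was run. Named genes were the 12 on each side (10 for Trdc-only cells) with the largest log2 ratio at 5 CPM added, among genes at 100 CPM or more with an interval beyond 2-fold and at most 3 times as high in the library's other cells. Mitochondrial, ribosomal, haemoglobin, predicted and sex-linked marker genes and those of the choice were left out. The keratinocyte and macrophage lists keep the genes of the choice. A fixed set of genes, 19 of which are reported, is given whatever its values; 1 item is not reported here and was left out of the lists and of the count of cells with type 17 transcripts. List examples are those with large ratios. Members, the 28 gene lists and rules were chosen with earlier results of these data known.

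Doublets were not removed, except in an alternative with Scrublet (Scanpy 1.11.5), which took 5 epidermal and 1 dermal lymphocyte. The script for the ratio intervals was checked on simulated counts. Python 3.11.15, SciPy 1.17.1 and edgeR 4.0.16 (TMM factors only) were used, with coordinates from GENCODE vM21. Settings were varied in 16 ways listed beforehand, and 2 were chosen after seeing the data: the stricter set, and leaving out dermal cells with 1% Cd3.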

Additional observations from a re-analysis of the deposited data

How the results depend on the processing

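The median log2 ratio stayed between 1.32 and 2.004 for the dendritic epidermal T cell list and between -3.62 and -2.49 for the type 17 list over all settings. The Trdc-only share of epidermal lymphocytes was 56.5% with at least 1 Cd3 UMI, 72.3% with at least 4, 71.4% in the stricter set and 81.1% when thinned to 1000 UMIs. Genes higher in epidermis were 238 with 0 C1q UMIs, 242 with median-of-ratios factors and 91 when thinned, where 138 were higher in dermis. Among Trdc-only cells they were 60 (epidermis) and 144 (dermis) with 0 C1q UMIs, and 42 and 82 when thinned, with fewer UMIs summed. Of all counts and shares, 62 of 74 stayed within their limits. List medians reversed, by the label used, in 6 of 476 values. NK and innate lymphoid markers did so with at least 1 Cd3 UMI (-1.39), and mast cell markers when thinned (0.82). Fibroblast and vessel markers did so when thinned (1.06), with free RNA subtracted (1.77) and without the low-count filter (0.25). Macrophage markers did so with free RNA subtracted (1.25). That setting was scaled to these same markers in dermis, so it takes them out there by design. The cause of the other reversals was not tested. The label did not take in every change of sign. Chemokine receptor and homing genes, at -0.42 with the main settings, ranged from -1.68 to 0.76. Medians also changed sign for coreceptor and signalling genes (-0.20 to 0.67), interferon-stimulated genes (-0.45 to 0.49) and cell cycle genes (-0.63 to 0.29). Class I genes (-0.64 to 0.015) and mitochondrially encoded genes (-0.42 to 0.039) did so as well. No named gene reversed among 697 values, and 101 moved beyond their counting interval. These values cover the genes named from all cells of the choice and the fixed set. Genes named only in the stricter set or only in Trdc-only cells were not among them. The named genes had been picked from these same cells for large ratios, so the lack of reversals is no independent check. No paired analysis was possible because each group has 1 library. Leaving out a replicate was not possible for the same reason. The 78 dermal cells limit depth: 3 counts in them are 8.81 CPM.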
